A study of Mus musculus with 12 samples.

Results

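The circadian clock of the liver was followed through 10 of its genes, Arntl, Clock, Npas2, Nr1d1, Nr1d2, Per1, Per2, Per3, Dbp and Ciart, in RNA-sequencing libraries from mice with and without hepatocyte deletion of PPARγ. The genes were taken by symbol from the deposited tables, in which each of the 10 had a single entry among 54532 genes. All animals were male, carried floxed Pparg alleles and received a single injection of adeno-associated virus 8 at 8 weeks of age. The virus of the PPARγ-KO group expressed Cre recombinase, and that of the littermate controls, labelled WT, expressed enhanced green fluorescent protein. Both were driven by the TBG promoter, which is active in hepatocytes, so the other cells of the liver kept an intact Pparg gene. All groups then received the FFD, a fast-food diet with fructose and glucose in the drinking water, and livers were taken after 2 or 5 months, with 3 libraries per genotype and time and 12 in all. No group without the diet was analysed here. The labels number the libraries without stating that each came from a separate animal, so p-values measure the spread between these libraries.

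The clock of liver cells is a feedback loop of transcription. BMAL1, the product of Arntl, pairs with CLOCK or NPAS2 on E-box sequences and activates the Per and Cry genes, Nr1d1, Nr1d2, Dbp and Ciart. Of their products, PER, CRY and CIART shut the activators off, the REV-ERB receptors encoded by Nr1d1 and Nr1d2 repress Arntl, Clock and Npas2 through ROR elements, and DBP carries the rhythm to output genes. Levels of the activator genes and of the genes they drive therefore peak at nearly opposite hours in mouse liver. Accordingly, Arntl, Clock and Npas2 are referred to as the 3 Arntl-phase genes, and Dbp, Nr1d1, Nr1d2, Per1, Per2, Per3 and Ciart as the 7 Dbp-phase genes. Mice were kept on a daily cycle of light and dark. The hour at which livers were collected, and whether the livers of both times were prepared, sequenced and counted together, are not given in the sources used here. All animals were injected at the same age, so those with more months of diet were also older at collection. Months of diet, age, hour of collection and batch cannot be told apart in any comparison between the times. The hour of collection of each genotype within a time is not given either.

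To show the sequence context of the members, promoters from 250 bases before to 50 bases after the annotated start site were taken from RefSeq (build GRCm38.p6, equivalent to mm10). They were available for 9 of the 10 genes, 13 promoters in all, with Per2 unmatched. Both strands were searched for the E-box CACGTG, the E-prime-box CACGTT, the ROR element TAGGTCA, the D-box TTANGTAA bound by DBP and its relatives, and a DR1 element, the spaced repeat bound by PPAR heterodimers. Of 32851 mouse promoters of the same length, 7.15% held the E-box, 4.68% the E-prime-box, 2.61% the ROR element, 2.32% the D-box and 0.0396% the DR1 element. A motif was present in promoters of 5 members, and these promoters are printed 5′ to 3′ on the strand of the gene, with the matches in capitals.
Ciart, chr3:95882179-95882478, minus strand: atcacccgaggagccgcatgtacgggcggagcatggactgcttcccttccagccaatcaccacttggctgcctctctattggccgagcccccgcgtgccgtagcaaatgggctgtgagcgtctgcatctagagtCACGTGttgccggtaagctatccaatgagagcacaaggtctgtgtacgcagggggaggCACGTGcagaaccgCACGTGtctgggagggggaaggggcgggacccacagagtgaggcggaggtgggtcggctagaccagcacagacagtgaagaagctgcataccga
Per1, chr11:69098699-69098998, plus strand: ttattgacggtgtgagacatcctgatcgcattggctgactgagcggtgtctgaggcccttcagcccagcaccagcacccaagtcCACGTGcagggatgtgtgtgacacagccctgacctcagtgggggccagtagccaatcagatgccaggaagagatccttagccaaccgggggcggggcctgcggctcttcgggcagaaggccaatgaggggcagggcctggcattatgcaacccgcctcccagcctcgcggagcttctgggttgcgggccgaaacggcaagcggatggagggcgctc
Nr1d1, chr11:98775328-98775627, minus strand: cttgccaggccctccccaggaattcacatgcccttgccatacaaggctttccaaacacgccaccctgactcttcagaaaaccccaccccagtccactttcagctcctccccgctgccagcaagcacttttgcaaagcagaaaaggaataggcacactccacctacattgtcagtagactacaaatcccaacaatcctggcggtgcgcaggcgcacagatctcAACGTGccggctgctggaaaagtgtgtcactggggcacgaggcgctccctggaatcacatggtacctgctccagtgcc
Per3, chr4:151044616-151044915, minus strand: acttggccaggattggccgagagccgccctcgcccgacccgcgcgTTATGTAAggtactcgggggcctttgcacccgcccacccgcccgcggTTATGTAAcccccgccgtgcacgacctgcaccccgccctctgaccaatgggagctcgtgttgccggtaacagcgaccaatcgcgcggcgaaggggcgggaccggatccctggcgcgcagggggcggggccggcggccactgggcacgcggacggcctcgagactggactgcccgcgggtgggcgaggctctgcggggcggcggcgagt
Arntl, chr7:113207261-113207560, plus strand: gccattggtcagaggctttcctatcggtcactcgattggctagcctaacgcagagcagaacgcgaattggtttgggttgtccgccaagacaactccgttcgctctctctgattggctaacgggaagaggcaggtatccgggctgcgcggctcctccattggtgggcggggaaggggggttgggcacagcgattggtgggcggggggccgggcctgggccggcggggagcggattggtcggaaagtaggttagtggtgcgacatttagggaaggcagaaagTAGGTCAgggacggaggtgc
Ciart held 3 E-boxes, 116, 58 and 44 bases before the start site, a number reached by 29 of the 32851 promoters (0.0883%). Per3 held 2 D-boxes, 205 and 158 bases before its start, as many as in 27 promoters (0.0822%). Per1 had an E-box 166 bases before the start, Nr1d1 an E-prime-box 28 bases before it, and the second of the 2 Arntl promoters a ROR element 30 bases after it. No match overlapped another, and the promoters of Clock, Npas2, Nr1d2 and Dbp held none of these letters within the window. No promoter of the 9 genes held the DR1 element. A match describes the sequence and does not show that a factor was bound in these livers.

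Libraries held 16367775 to 27452284 counts, and the members were read at 8 (Npas2 in a WT library at 2 months) to 4366 counts (Nr1d2 in a KO-labelled library at 2 months). All 10 passed the filter on low counts in every comparison. Levels are given as normalized CPM, counts scaled to the size of each library after correction for its composition by the TMM method of edgeR. Pparg itself was at 38.8, 41.4 and 37.6 normalized CPM in WT and 50.4, 66.45 and 52.0 in KO-labelled livers at 2 months, and at 36.9, 41.4 and 37.05 in WT and 86.5, 92.9 and 75.0 in KO-labelled livers at 5 months. The targeted gene was thus read at a higher level in every KO-labelled library than in any WT library of that time, from counts over the whole gene that do not separate the deleted exons, so genotypes are given as labelled and the PPARγ-KO libraries are called KO-labelled livers. Of the replicates, WT replicate 1 at 2 months differed most from its group, with a chi-square per gene of 31.7 and 27.6 to the other replicates where the other pairs of replicates had 2.44 to 17.5. The liver identity of the samples was clear from 6 hepatocyte markers (Alb, Apoa1, Ttr, Cps1, Hnf4a and Asgr1), which summed to 47560 to 78470 normalized CPM, and no marker of any of the 7 cell types examined was at 0 in all libraries. In bulk tissue, fewer cells of a type and less RNA per cell cannot be told apart.

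**Figure D1:**
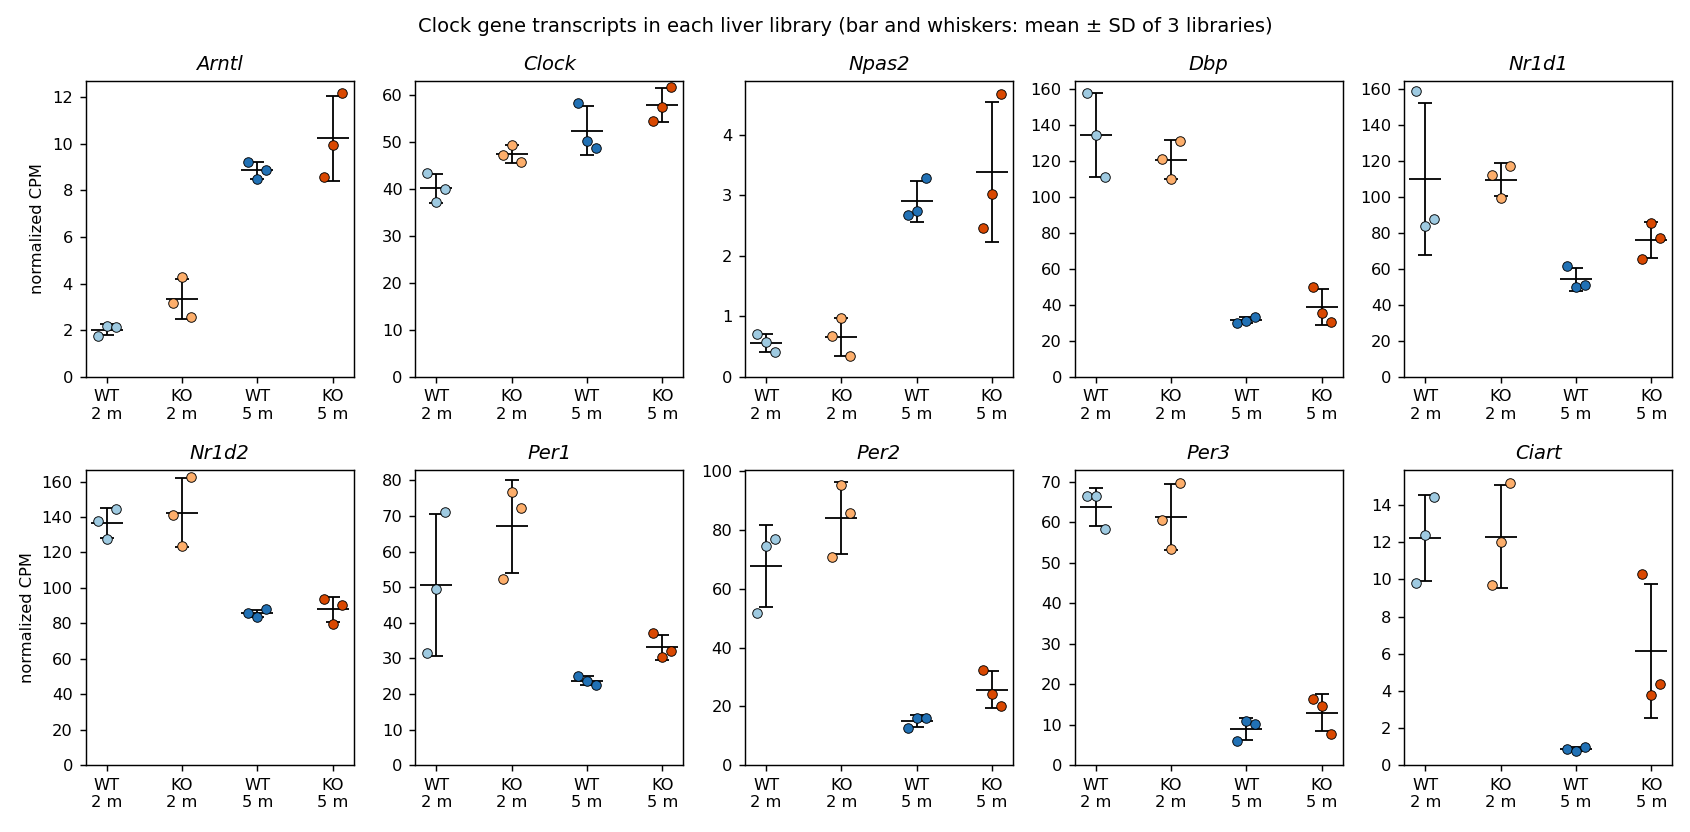
Normalized CPM of the 10 clock genes (vertical axis, linear and starting at 0) in each of the 12 liver libraries, by group (horizontal axis; m, months of FFD), with points for libraries, a bar for the mean and whiskers for the SD of 3 libraries. Arntl, Clock and Npas2 were higher at 5 months and the other 7 genes lower in WT, and Ciart of the KO-labelled livers at 5 months lay between 3.79 and 10.3, above the WT libraries of that time at 0.758 to 0.992.

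The comparison of 5 with 2 months of FFD asked how clock gene expression differed along the course of the diet. In WT livers all 10 genes changed, the 3 Arntl-phase genes upwards and the 7 Dbp-phase genes downwards. The rises ran from 1.31-fold for Clock to 5.17-fold for Npas2, as ratios of group means, and levels at 2 months exceeded those at 5 months by 1.59-fold for Nr1d2 to 13.9-fold for Ciart. By the quasi-likelihood F-test of edgeR, adjusted over all genes by the method of Benjamini and Hochberg with a threshold of 0.05, 10 of 10 members passed, where 46.4% of all 14491 genes tested passed, 23.8% upwards and 22.7% downwards. The groups did not overlap for any of the 10 genes, as was the case for 56.7% of all genes. In KO-labelled livers, 9 of 10 members passed in the same directions, 3 up and 6 down, against 44.9% of 14478 genes, 22.7% upwards and 22.2% downwards, and Ciart did not. The groups did not overlap for those 9 genes, against 55.6% of all genes. The median log2 change was 2.13 for the Arntl-phase and -2.10 for the Dbp-phase genes in WT and 1.63 and -1.02 in KO-labelled livers, beside medians of all genes of -0.01 in both. These comparisons share no library with each other, but each shares its libraries with the comparisons of genotype.

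Among the activators, Arntl (ENSMUSG00000055116, chr7:113207465-113314126) encodes BMAL1, the partner without which the loop stops. It was at 1.745, 2.16 and 2.13 normalized CPM in WT at 2 months and at 9.24, 8.51 and 8.87 at 5 months. KO-labelled livers held 3.16, 4.27 and 2.57 at 2 months and 8.59, 9.94 and 12.2 at 5 months. Every library at 5 months lay above every library at 2 months, and the KO-labelled livers at 2 months sat in between, all above the WT libraries of that time. Group means rose 4.41-fold in WT and 3.07-fold in KO-labelled livers, with log2 changes of 2.13 (SE 0.177, edgeR adjusted p = 9.2e-06) and 1.63 (SE 0.205, edgeR adjusted p = 9.14e-05).

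Npas2 (ENSMUSG00000026077, chr1:39193731-39363236), which can take the place of CLOCK beside BMAL1, was the member with the fewest reads. It was at 0.709, 0.566 and 0.406 normalized CPM in WT at 2 months and 2.67, 2.74 and 3.29 at 5 months. KO-labelled livers had 0.673, 0.969 and 0.335 at 2 months and 2.45, 3.02 and 4.67 at 5 months. The times did not overlap in either genotype, while the genotypes overlapped at both times. The log2 change between the times was 2.36 (SE 0.314, edgeR adjusted p = 0.000164) in WT and 2.40 (SE 0.386, edgeR adjusted p = 0.000507) in KO-labelled livers.

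Clock (ENSMUSG00000029238, chr5:76209868-76304792), whose transcript is known to vary little over the day compared with that of its partner, moved less than the other activators. It was at 43.3, 37.15 and 39.9 normalized CPM in WT at 2 months and 58.35, 50.1 and 48.7 at 5 months, and at 47.1, 49.4 and 45.6 and then 54.5, 57.5 and 61.7 in KO-labelled livers. As with Arntl, the KO-labelled livers at 2 months all lay above the WT libraries of that time. The rises of 0.38 log2 units in WT (SE 0.0901, edgeR adjusted p = 0.00539) and of 0.29 in KO-labelled livers (SE 0.0705, edgeR adjusted p = 0.00653) were the smallest among the 3 activators, and the latter was below a 1.3-fold change.

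The REV-ERB receptors, which repress Arntl, Clock and Npas2, were lower at 5 months. Nr1d1 (ENSMUSG00000020889, chr11:98767932-98775333) was at 158.7, 83.6 and 87.4 normalized CPM in WT at 2 months and 61.5, 49.9 and 51.1 at 5 months. KO-labelled livers had 112, 99.3 and 117 at 2 months and 65.6, 85.65 and 77.2 at 5 months. WT replicate 1 at 2 months was well above the other replicates of its group. The log2 change in WT was -1.02 (SE 0.291, edgeR adjusted p = 0.0365), with the call lost without any of the 3 WT libraries of 5 months (edgeR adjusted p from 0.0797 to 0.117), and that in KO-labelled livers was -0.53 (SE 0.1004, edgeR adjusted p = 0.00226), a call lost in the fit over all 12 libraries (edgeR adjusted p = 0.102). Nr1d2 (ENSMUSG00000021775, chr14:18204054-18239127) had 138, 128 and 144 normalized CPM in WT at 2 months and 85.7, 83.8 and 87.9 at 5 months. In KO-labelled livers it had 141, 124 and 162.5, then 93.65, 79.8 and 90.2. It fell in both genotypes, with log2 changes of -0.67 (SE 0.0741, edgeR adjusted p = 5.07e-05) and -0.70 (SE 0.1004, edgeR adjusted p = 0.00048).

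The period genes encode the inhibitors that close the main loop, and Per2 and Per3 fell more than Per1. Per3 (ENSMUSG00000028957, chr4:151003652-151044665) was at 66.3, 66.5 and 58.3 normalized CPM in WT at 2 months and 5.92, 11.0 and 10.23 at 5 months, and at 60.6, 53.5 and 69.7 and then 16.5, 14.7 and 7.76 in KO-labelled livers. Its mean was 7.05-fold higher at 2 than at 5 months in WT and 4.72-fold in KO-labelled livers, with log2 changes of -2.81 (SE 0.204, edgeR adjusted p = 4.48e-05) and -2.23 (SE 0.288, edgeR adjusted p = 0.0029). Per2 (ENSMUSG00000055866, chr1:91415982-91459324) was at 51.7, 74.6 and 76.8 in WT at 2 months and 12.6, 16.03 and 16.2 at 5 months, and at 70.8, 95.2 and 85.7 and then 32.55, 24.3 and 20.25 in KO-labelled livers. The times did not overlap for either gene in either genotype. Per2 changed by -2.18 (SE 0.171, edgeR adjusted p = 4.54e-05) in WT and -1.70 (SE 0.201, edgeR adjusted p = 0.00117) in KO-labelled livers.

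Per1 (ENSMUSG00000020893, chr11:69095217-69109960), which also answers acutely to hormones and feeding, varied widely between the WT libraries of 2 months. It was at 31.4, 49.4 and 71.1 normalized CPM in WT at 2 months and 25.1, 23.8 and 22.55 at 5 months, and at 52.3, 76.8 and 72.15 and then 37.0, 30.3 and 32.05 in KO-labelled livers. WT replicate 1 at 2 months, the highest library for Nr1d1, was here the lowest of its group. The log2 change in WT of -1.09 (SE 0.303, edgeR adjusted p = 0.0329) lost its call without WT replicate 2 at 2 months or any WT library at 5 months (edgeR adjusted p from 0.0785 to 0.108), whereas the change of -1.02 in KO-labelled livers (SE 0.154, edgeR adjusted p = 0.00161) passed under every alternative run.

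Dbp (ENSMUSG00000059824, chr7:45705088-45710203), an output transcription factor that passes the rhythm to metabolic genes through D-boxes, was at 158, 135 and 111 normalized CPM in WT at 2 months and 29.9, 31.1 and 33.4 at 5 months. KO-labelled livers had 121, 109.9 and 131.5 at 2 months and 50.1, 35.4 and 30.7 at 5 months. The WT libraries of 5 months were within a narrow range, and replicate 1 of the KO-labelled livers at 5 months was the highest of all 6 libraries of that time. The log2 change was -2.10 (SE 0.125, edgeR adjusted p = 3.32e-06) in WT, rank 78 of 14491 genes by p, and -1.64 (SE 0.193, edgeR adjusted p = 0.00121) in KO-labelled livers.

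Ciart (ENSMUSG00000038550, chr3:95878503-95882251), also called Chrono, encodes a repressor of BMAL1 and CLOCK. It had 180, 241 and 285 counts in WT at 2 months and 15, 13 and 19 counts at 5 months, or 9.82, 12.4 and 14.5 normalized CPM against 0.889, 0.758 and 0.992. KO-labelled livers had 187, 211 and 408 counts at 2 months, or 9.68, 12.0 and 15.2 normalized CPM, and 218, 74 and 69 counts at 5 months, or 10.3, 3.79 and 4.35. The WT times were separated by a wide gap, whereas replicate 1 of the KO-labelled livers at 5 months was as high as the libraries of 2 months. In WT, Ciart had the largest change of all members, a log2 change of -3.78 (SE 0.223, edgeR adjusted p = 2.28e-06), which ranked 21 of 14491 genes by p. In KO-labelled livers the log2 change was -0.99 (SE 0.430, edgeR adjusted p = 0.121), and it passed without replicate 1 of 5 months, at -1.60 (edgeR adjusted p = 0.000414), and at the same size in the fit over all 12 libraries (edgeR adjusted p = 0.0301).

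**Figure D2:**
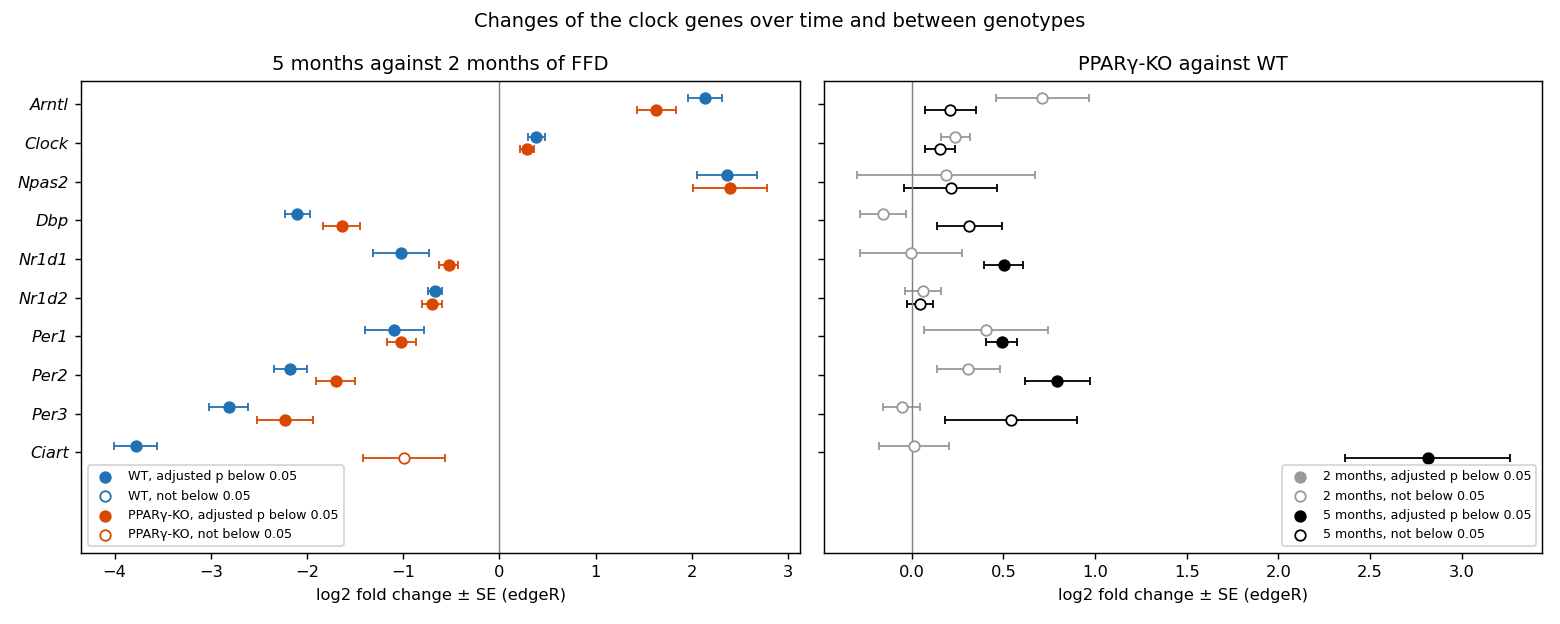
Log2 fold changes of the 10 clock genes by edgeR (horizontal axes, whiskers SE, n = 3 libraries per group), between 5 and 2 months for each genotype (left) and between KO-labelled livers and WT at each time (right), with filled points where the adjusted p was below 0.05. The 3 Arntl-phase genes lie right of 0 and the 7 Dbp-phase genes left of 0 in the left panel, and in the right panel the filled points are those of Nr1d1, Per1, Per2 and Ciart at 5 months, with Ciart at 2.81.

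The comparison of PPARγ-KO with WT at each time asked whether hepatocyte PPARγ deletion went with a different state of the clock. At 2 months, 0 of 10 members passed the edgeR threshold, where 3.56% of 14573 genes passed, 1.78% higher and 1.78% lower, and DESeq2 also called 0. At an unadjusted edgeR p under 0.05 there were 2, both activators and both without overlap between the groups, which 24.1% of all genes showed: Arntl with a log2 change of 0.71 (SE 0.253, edgeR adjusted p = 0.163) and Clock with 0.24 (SE 0.0801, edgeR adjusted p = 0.143). The other 8 members had log2 changes from -0.16 for Dbp to 0.40 for Per1, with edgeR adjusted p from 0.402 to 0.996. Ciart was at 12.2 ± 2.32 normalized CPM in WT and 12.3 ± 2.76 in KO-labelled livers (SD, n = 3 each). Without WT replicate 1, the library furthest from its group, 2 members passed at 2 months, Clock with a log2 change of 0.30 (edgeR adjusted p = 0.0389) and Nr1d1 with 0.36 (edgeR adjusted p = 0.0185).

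At 5 months, 4 of 10 members were higher in KO-labelled livers, all of them Dbp-phase genes, and 0 were lower. All 7 Dbp-phase genes were lower at 5 than at 2 months in WT. That comparison uses the same WT libraries of 5 months, so it is no separate evidence on the 4. Over all 14138 genes, 8.9% passed upwards, 9.51% downwards and 18.4% in either direction. The groups did not overlap for the same 4 members, against 34.8% of all genes. Ciart was at 6.14 ± 3.60 normalized CPM in KO-labelled livers and 0.879 ± 0.117 in WT (SD, n = 3 each), 6.99-fold apart, with a log2 change of 2.81 (SE 0.448, edgeR adjusted p = 0.00319). Replicate 1 held the highest value, and without it the difference was 2.21 (edgeR adjusted p = 0.000162). Over the 16 alternatives Ciart kept its call, with log2 changes from 2.21 to 3.07 and adjusted p of edgeR or DESeq2 up to 0.0422.

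The other members that passed at 5 months were repressors of the loop. Per2 was at 25.7 ± 6.27 against 15.0 ± 2.03 normalized CPM (SD, n = 3 each), a log2 change of 0.79 (SE 0.178, edgeR adjusted p = 0.017), and its call was lost without any of the 3 WT libraries in turn (edgeR adjusted p from 0.05905 to 0.0644). Per1 was at 33.1 ± 3.50 against 23.8 ± 1.26 (SD, n = 3 each), a log2 change of 0.49 (SE 0.0866, edgeR adjusted p = 0.00168). Nr1d1 was at 76.1 ± 10.1 against 54.2 ± 6.38 (SD, n = 3 each), a log2 change of 0.50 (SE 0.107, edgeR adjusted p = 0.00839). In a fit over all 12 libraries, which pools the spread of both times, Per1 and Nr1d1 did not pass (edgeR adjusted p = 0.317 and 0.230). Dbp, Per3 and Nr1d2, of the same phase, did not pass, with log2 changes of 0.31 (edgeR adjusted p = 0.302), 0.54 (edgeR adjusted p = 0.387) and 0.04 (edgeR adjusted p = 0.719). Neither did the activators, at 0.21 for Arntl, 0.15 for Clock and 0.21 for Npas2 (edgeR adjusted p = 0.347, 0.215 and 0.626). Of these 6, Dbp passed without a filter on low counts, at the same size (edgeR adjusted p = 0.00675), and Clock without WT replicate 1, at 0.24 (edgeR adjusted p = 0.0322). All 10 fitted values were above 0, with a median of 0.40 beside -0.01 for all genes, but those of the 6 are not shown to differ from 0. Npas2 turned to -0.07 without replicate 3 of the KO-labelled livers, and Nr1d2 to -0.02 with library size alone.

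Whether the difference between genotypes itself differed between the times was tested as a contrast over all 12 libraries. Ciart was the member that passed, with a change by 2.79 log2 units (SE 0.544, edgeR adjusted p = 0.0338), where 1.57% of 15127 genes passed, 0.661% upwards and 0.912% downwards. This call did not hold with the replicate number as a block (edgeR adjusted p = 0.0652), nor without WT replicate 2 or 3 of 2 months, replicate 1 or 2 of the KO-labelled livers at 2 months, or any WT library of 5 months (edgeR adjusted p from 0.0616 to 0.119), while DESeq2 gave an adjusted p of 3.57e-06. For the other 9 members the contrast ran from -0.50 for Arntl to 0.59 for Per3, with edgeR adjusted p from 0.421 to 0.990. The contrast is also the difference between genotypes in the change over time, which was thus not shown to differ for any member but Ciart.

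The position of each library between the phases was described by an index, the mean log2 normalized CPM of the 7 Dbp-phase genes minus that of the 3 Arntl-phase genes. It was 3.96, 4.06 and 4.25 in WT and 3.69, 3.46 and 4.36 in KO-labelled livers at 2 months. At 5 months it was 0.504, 0.699 and 0.664 in WT and 1.72, 1.15 and 0.659 in KO-labelled livers. The 6 libraries of 2 months were well apart from the 6 of 5 months, and replicate 3 of the KO-labelled livers at 5 months fell within the WT range while replicates 1 and 2 were above it. Group means were 4.09 ± 0.146 in WT and 3.84 ± 0.467 in KO-labelled livers at 2 months, and 0.622 ± 0.104 and 1.17 ± 0.529 at 5 months (SD, n = 3 each). The difference between genotypes at 5 months was 0.55, and 0.25 with Ciart left out of the index. The counts of Dbp for each count of Arntl, a pair from opposite phases in the same library, gave the same order of times, with 25.7 to 90.7 over the libraries of 2 months and 2.52 to 5.84 over those of 5 months. At 2 months this ratio was 52.2 to 90.7 in WT and 25.7 to 51.2 in KO-labelled livers, barely apart, and the genotypes overlapped at 5 months. The ratio at 2 months rests on 32 to 75 counts of Arntl per library. At that time the index of the genotypes overlapped, and neither Arntl nor Dbp passed between them (edgeR adjusted p = 0.163 and 0.556). Of all genes, 24.1% had levels without overlap there.

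**Figure D3:**
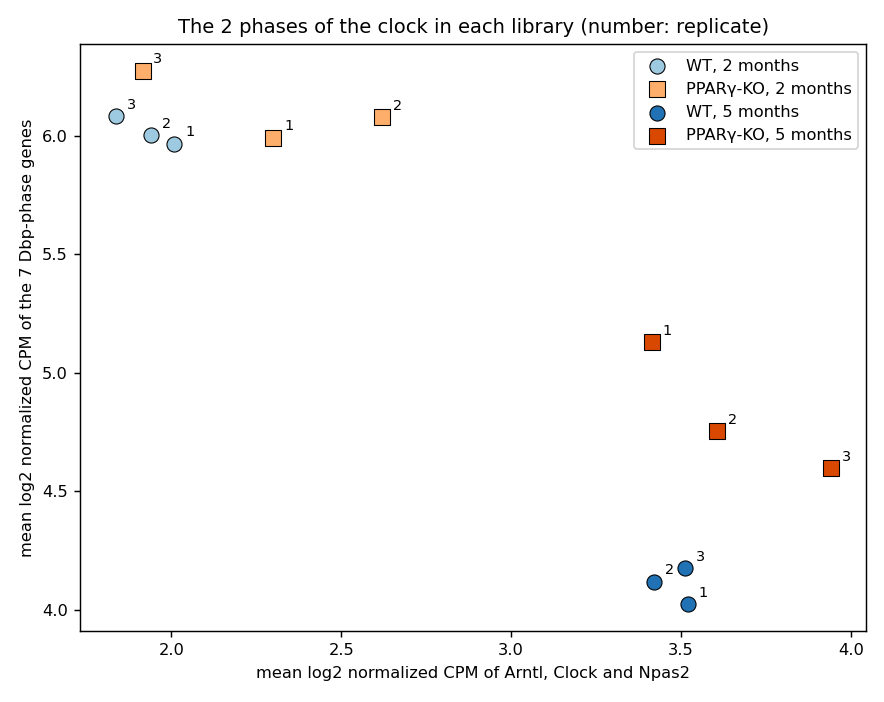
Mean log2 normalized CPM of the 7 Dbp-phase genes (vertical axis) against that of the 3 Arntl-phase genes (horizontal axis) in each of the 12 libraries, with the replicate number beside each point. The libraries of 2 months lie at the upper left and those of 5 months at the lower right, where the 3 KO-labelled livers lie above the 3 WT libraries on the vertical axis.

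Levels of different genes were compared per kilobase of gene model, as normalized CPM per kilobase. In WT at 2 months, Dbp led with 45.0 ± 7.85, followed by Nr1d1 with 35.7 ± 13.7 and Nr1d2 with 25.2 ± 1.54 (SD, n = 3 each). Per2, Per1, Per3 and Ciart had 11.6 ± 2.37, 8.99 ± 3.53, 6.63 ± 0.490 and 5.41 ± 1.03, and the activators came last, with Clock at 2.92 ± 0.225, Arntl at 0.268 ± 0.0308 and Npas2 at 0.117 ± 0.0317. The neighbours Dbp and Nr1d1, Nr1d1 and Nr1d2, Per2 and Per1, Per1 and Per3, and Per3 and Ciart were within the sum of their SDs of each other. At 5 months in WT the order was Nr1d1 with 17.6 ± 2.07, Nr1d2 with 15.9 ± 0.378, Dbp with 10.5 ± 0.6003, Per1 with 4.23 ± 0.223, Clock with 3.82 ± 0.380, Per2 with 2.55 ± 0.347, Arntl with 1.18 ± 0.0487, Per3 with 0.941 ± 0.283, Npas2 with 0.605 ± 0.0710 and Ciart with 0.389 ± 0.0519. Of these, Nr1d1 and Nr1d2, Per1 and Clock, Arntl and Per3, and Per3 and Npas2 were within the sum of their SDs. The mean of Dbp stood above those of both REV-ERB genes at 2 months and below them at 5 months, and that of Ciart moved to the end of the order. In KO-labelled livers at 5 months the mean of Ciart was 2.72 ± 1.59 (SD, n = 3) and that of Npas2, then the last member, 0.706 ± 0.240 (SD, n = 3).

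The remaining transcription factors of the clock moved in the same 2 directions over time. Of 8 tested, 1 rose and 5 fell in WT, and the same numbers did so in KO-labelled livers, beside the 46.4% and 44.9% of all genes that passed in either direction. In WT, Bhlhe41 and Bhlhe40, repressors that compete for E-boxes, changed by -2.125 (edgeR adjusted p = 0.00381) and -1.01 (edgeR adjusted p = 0.008) log2 units. Tef and Hlf, D-box activators related to DBP, changed by -1.63 (edgeR adjusted p = 2.28e-06) and -0.91 (edgeR adjusted p = 1.23e-05), and Cry2 by -1.19 (edgeR adjusted p = 3.06e-05). Nfil3, the repressor at D-boxes whose level runs opposite to that of DBP, rose by 1.04 (edgeR adjusted p = 0.000111). In KO-labelled livers the corresponding changes were -1.96, -0.66, -1.12, -0.39 and -0.56 for the 5 and 0.70 for Nfil3 (edgeR adjusted p up to 0.0238). Cry1 had log2 changes of -0.16 and 0.19 and Rora, an activator at ROR elements, 0.01 and 0.19 (edgeR adjusted p from 0.0783 to 0.898), and Rorb had no count in any library.

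Between genotypes, 5 of these 8 factors were higher in KO-labelled livers at 5 months and 0 lower, against the same 8.9% of genes higher. They were Cry2 with 0.67 (edgeR adjusted p = 0.000505), Hlf with 0.59 (edgeR adjusted p = 9.24e-05), Tef with 0.52 (edgeR adjusted p = 0.00491), Bhlhe40 with 0.43 (edgeR adjusted p = 0.00103) and Rora with 0.35 (edgeR adjusted p = 0.00247) on the log2 scale. Cry2, a repressor like PER, was at 33.6, 31.1 and 31.1 normalized CPM in KO-labelled livers and 17.1, 21.4 and 22.3 in WT at 5 months, and at 41.95 to 51.4 in the 6 libraries of 2 months. Cry1, Nfil3 and Bhlhe41 had 0.42, 0.18 and 0.05 (edgeR adjusted p from 0.0963 to 0.935). At 2 months, edgeR called 0 of the 8, with 1 at an unadjusted p under 0.05 and 1 called by DESeq2, where edgeR called 3.56% of all genes. Tested against the difference at 2 months, Cry2 changed by 0.63 (SE 0.140, edgeR adjusted p = 0.0357) and Hlf by 0.52 (SE 0.106, edgeR adjusted p = 0.0212), and the other 6 did not pass. Of all genes, 1.57% passed in that test.

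Kinases, ligases and other modifiers of clock proteins were less uniform. Of 11 tested, 2 rose and 6 fell over time in WT, and 2 rose and 1 fell in KO-labelled livers, where 46.4% and 44.9% of all genes passed. The difference between the genotypes in these changes was called by edgeR for 0 of the 11 (2 at an unadjusted p under 0.05, 1 by DESeq2). Of all genes, edgeR called 1.57% in that contrast, so 0 is near the share over all genes. Usp2, a deubiquitinase whose transcript follows the same phase as Dbp, had the widest change in WT, -2.62 (edgeR adjusted p = 1.99e-05). It was at 37.0, 44.0 and 42.45 normalized CPM in WT at 2 months and 9.00, 6.41 and 4.75 at 5 months, and at 28.8, 36.25 and 42.8 and then 29.35, 14.4 and 17.35 in KO-labelled livers. The other genes that passed in WT were Csnk1e, Csnk1a1, Gsk3b, Btrc and Sirt1, which changed by -0.52 to -0.19, and Fbxl21 and Nono, which rose by 0.56 and 0.31. In KO-labelled livers, Csnk1e fell by 0.70, and Csnk1d and Nono rose by 0.21 and 0.22. At 5 months Usp2 was 1.62 higher (edgeR adjusted p = 0.0418) and Csnk1d 0.22 higher (edgeR adjusted p = 0.0415) in KO-labelled livers, and 0 were lower. These were 2 of the 11, where 18.4% of all genes passed in either direction. At 2 months edgeR and DESeq2 called 0 of 11, with 0 at an unadjusted p under 0.05, where edgeR called 3.56% of all genes.

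Of 15 genes known to follow the clock in liver, 2 rose and 8 fell over time in WT and 1 rose and 3 fell in KO-labelled livers, where again 46.4% and 44.9% of all genes passed. The genotypes were not shown to differ in these changes, with 0 of the 15 called by edgeR (6 at an unadjusted p under 0.05, 3 by DESeq2). In that contrast edgeR called 1.57% of all genes, so 0 is near the share over all genes. The shares of all genes by the other measures were not counted. Wee1, a cell-cycle kinase driven by BMAL1 and CLOCK, fell by 2.05 in WT (edgeR adjusted p = 2.28e-06) and by 1.19 in KO-labelled livers (edgeR adjusted p = 0.000489). In WT, Nampt, Por, Alas1, Gys2, Upp2, Cyp7a1 and Cyp2a5, enzymes of NAD, heme, drug, glycogen, uridine and bile acid metabolism, also fell, with log2 changes from -1.92 to -0.43, and Insig2 and Avpr1a rose by 1.01 and 0.75. In KO-labelled livers, Gys2 fell by 0.49 and Noct, which encodes a phosphatase with a strong daily rhythm, by 2.11, and Insig2 rose by 0.88. At 5 months 4 were higher in KO-labelled livers, Lpin1 by 2.16 (edgeR adjusted p = 6.76e-08), Cyp2a5 by 2.06 (edgeR adjusted p = 0.0262), Upp2 by 1.81 (edgeR adjusted p = 0.00023) and Avpr1a by 0.61 (edgeR adjusted p = 0.00466), and Noct was lower, with -0.70 (edgeR adjusted p = 0.000633). At 2 months Avpr1a was 1.46 higher (edgeR adjusted p = 0.0117), and Wee1 was lower, with -0.50 (edgeR adjusted p = 0.0367). Of all genes, 18.4% passed between the genotypes at 5 months and 3.56% at 2 months. The share of Cyp2a5 reads that belong to its close relative Cyp2a4 is uncertain.

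**Figure D4:**
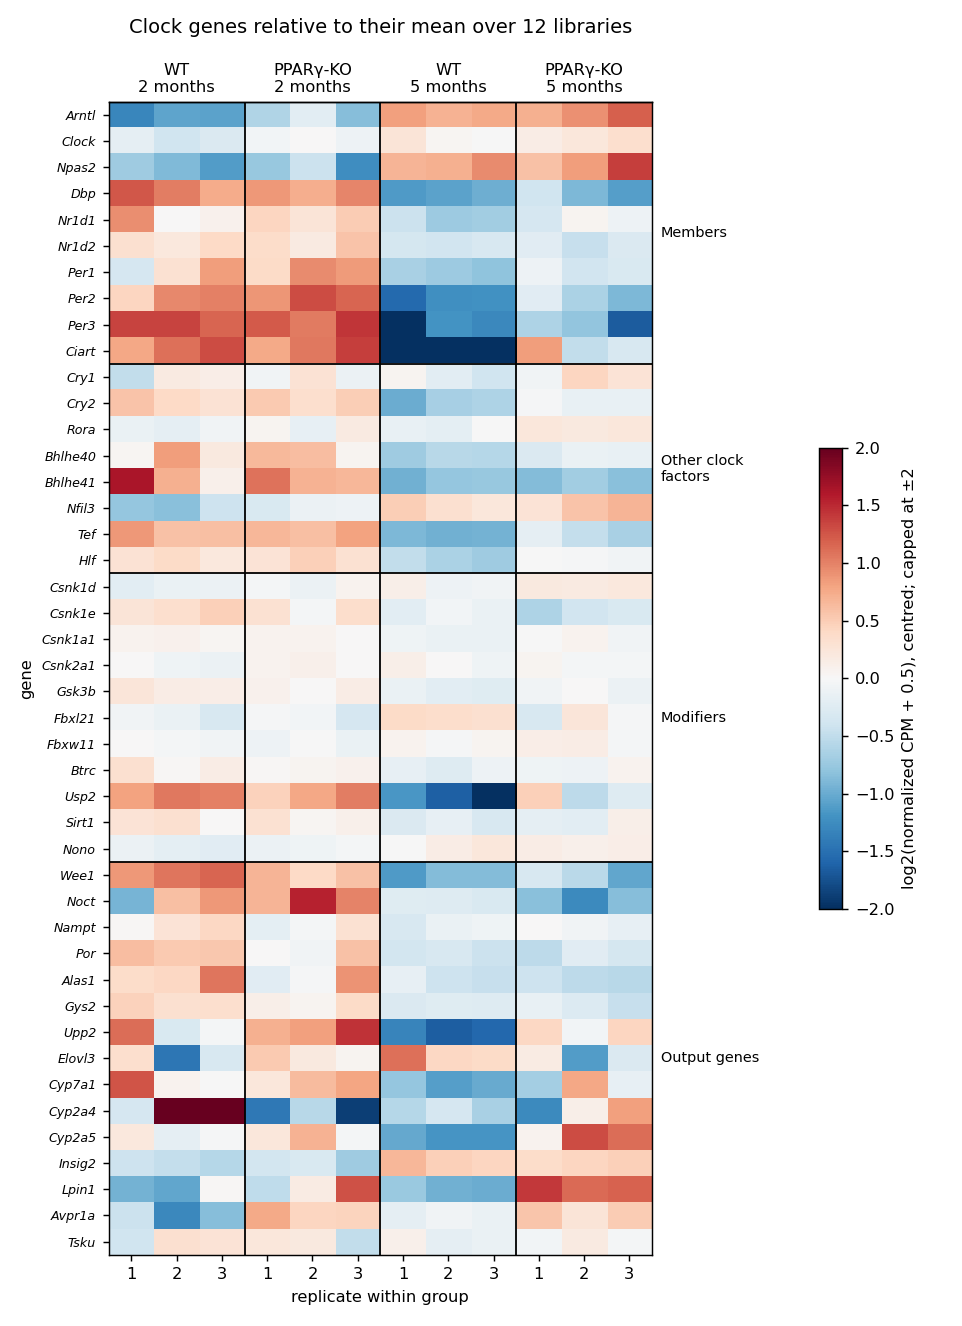
Log2(normalized CPM + 0.5) of the clock genes in 4 groups of rows (vertical axis) across the 12 libraries (horizontal axis), each gene centred on its mean over the libraries and capped at ±2, with red for higher and blue for lower values. Arntl, Npas2 and Nfil3 are blue at 2 months and red at 5 months, and Dbp, Per2, Per3, Tef and Wee1 the reverse. Ciart and Usp2 are red at 2 months and blue in WT at 5 months. In KO-labelled livers at 5 months both are red in replicate 1 and a paler blue than WT in replicates 2 and 3.

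Other cell types and overlapping genes were measured beside these results. At 5 months, 6 of 6 macrophage markers (Adgre1, Cd68, Clec4f, Lyz2, Csf1r and Timd4) were lower in KO-labelled livers, with a summed level of 362.9 to 504.9 normalized CPM against 744.3 to 899.2 in WT, and 4 of 6 stellate cell markers were lower, at 415.4 to 470.1 against 554.1 to 688.6. Of all genes, 9.51% were lower and 8.9% higher. Lower too were 2 of 3 neutrophil, 2 of 5 endothelial and 1 of 5 lymphocyte markers tested, and 1 of 4 cholangiocyte markers was higher. At 2 months, edgeR called 1 macrophage marker higher, Timd4 by 0.87 (edgeR adjusted p = 0.0154), and 0 lower, and 1 stellate cell marker lower, where 3.56% of all genes passed. Of 6 stellate cell markers, 5 were below 0 and 1 above, with 5 at an unadjusted edgeR p under 0.05 and 4 called by DESeq2. Macrophage markers had 3 and 2 by these measures. All 6 hepatocyte markers were above 0 at 2 months, with 0 called by edgeR, 4 at an unadjusted p under 0.05 and 2 called by DESeq2. Of 6 hepatocyte markers 2 were higher at 5 months, Alb by 0.64 (edgeR adjusted p = 0.00121) and Hnf4a by 0.28 (edgeR adjusted p = 0.0151). The sum was 66830 to 78040 against 47560 to 52730, and most of it was Alb, with means of 57050 in KO-labelled livers and 36940 in WT. Apoa1, Ttr, Cps1 and Asgr1 did not pass, with log2 changes from -0.01 for Apoa1 to 0.29 for Cps1. Over time in WT, 5 of 6 macrophage markers rose, from a sum of 317.8 to 381.7 at 2 months to the 744.3 to 899.2 given above. Of 5 endothelial markers, 3 fell over time in WT, with a sum of 248.2 to 313.3 at 2 months and 186.7 to 200.7 at 5 months, and in KO-labelled livers 4 fell and 1 rose, with a sum of 265.4 to 274.4 and then 176.0 to 191.0. Over all genes, 23.8% rose and 22.7% fell over time in WT, and 22.7% rose and 22.2% fell in KO-labelled livers. The part of these cell types in the clock gene results was not tested. Whether counting used the strand is not given in the sources used here, so reads of Nr1d1 cannot be told apart from those of Thra over 1075 shared bases, reads of Dbp from those of Sphk2 over 737, and reads of Ciart from those of C920021L13Rik, which covers the whole gene on the other strand. Per3 lies inside Camta1 on the same strand. In WT at 5 months, where Ciart had 13 to 19 counts in each library, C920021L13Rik had 6 to 13, and in KO-labelled livers of that time it had 13 to 18 where Ciart had 69 to 218. Over all libraries C920021L13Rik had 157 counts against 1920 for Ciart, and Camta1 891 against 8884 for Per3. Between the genotypes at either time and between the times in WT, edgeR called 0 of these 4 neighbours (1 at an unadjusted p under 0.05 in each comparison, 0 by DESeq2), and in KO-labelled livers Sphk2 rose over time by 0.52 (edgeR adjusted p = 0.000468) where Dbp fell.

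Genes whose profile over the 12 libraries was most like that of Dbp or Arntl were sought among 13161 others with a mean of at least 1 normalized CPM, by the root mean square distance of centred log2 values. Nearest to Dbp were Gm42979 at 0.215, Apoc2 at 0.240, Pcsk4 at 0.242, Ugt1a6a at 0.255 and Wee1 at 0.259. Of the members, Per2 at 0.357 and Per3 at 0.430 were nearest to Dbp, and Ciart at 0.896 was the furthest within the phase. Nearest to Arntl were Rps13-ps2 at 0.221, Tpi-rs11 at 0.290, Defb1 at 0.313, Gstp-ps at 0.314 and Gm16437 at 0.325, and of the members Npas2 at 0.372. Rps13-ps2, Tpi-rs11 and Gstp-ps are copies of other genes, and the counts assigned to them are uncertain.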

How the data were processed

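Total RNA of the livers was sequenced by Novogene on an Illumina NovaSeq. Before depositing, the authors had reads aligned to mm10, with STAR according to the methods and HISAT2 according to the submitters' processing notes, and counted per gene, and the deposited values are raw counts for 54532 genes per library. The counting program, the annotation and the use of strand are not given in the sources used here. Groups followed the sample titles, with 3 libraries each. Depth was 16367775 to 27452284 counts, and the members had 8 to 4366 counts, so that Npas2, Arntl and Ciart are limited by counting error where they are low.

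Each comparison was fitted on its own libraries in R 4.3.3 with edgeR 4.0.16 (filterByExpr, TMM, robust glmQLFit, two-sided glmQLFTest, Benjamini-Hochberg over all genes, threshold 0.05), and the contrast of the times on all 12. Normalized CPM used TMM over the 12 libraries, log2 values a prior count of 2, and the heatmap log2(normalized CPM + 0.5). Genes named are the members, Pparg, the other clock factors, the genes with an adjusted p below 0.05 in the lists of modifiers, output genes, glucocorticoid response and heat and cold response, and the 5 genes most like Dbp and Arntl. Neighbouring genes that overlap a member and the cell type markers were added. The members and lists were chosen with earlier results of these data known, and 2 genes of the lists are not reported here. The threshold was also set to 0.1, combined with a 1.3-fold change, or replaced by an unadjusted p with that change. Further alternatives were DESeq2 1.42.0, scaling by DESeq2 size factors or by library size, testing genes without a filter or those with 10 or more counts throughout, blocking on the replicate number, fitting all 12 libraries together, and leaving out each library in turn. For the index, other gene sets and a prior count of 0.5 were tried. The fits were tested on simulated data.

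Replicate numbers come from the sample titles. In the 5000 most abundant genes, same-numbered libraries at 2 months deviated from their group means together (r = 0.221, 0.325 and 0.139, other pairs -0.274 to 0.115). The titles do not state that equal numbers mark a pair, and correlations between so few libraries cannot show it. The reported fits used no block, and blocking on the number was run as an alternative. With that block, edgeR called 0 members at 2 months, as without it. Within groups no library had the same counts as another, with a chi-square per gene of 2.44 to 31.7 between replicates. This check cannot show that 2 libraries came from different livers. The lowest value, 2.44, was that of WT replicates 2 and 3 at 5 months, and the next was 9.40. Pairs from different groups were not compared. Promoters were read from RefSeq (GRCm38.p6) and matched by symbol. No group without the diet and no sample outside these 12 was used.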

Additional observations from a re-analysis of the deposited data

Results flagged for a closer look

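In 8 of the genes of all lists, cell type markers included, the difference between KO-labelled and WT livers was itself different at 5 and at 2 months by the contrast over all 12 libraries. Ciart differed by 2.79 log2 units (SE 0.544, edgeR adjusted p = 0.0338), from 0.01 at 2 months to 2.81 at 5 months, but this call was lost in 8 of 21 alternatives, 7 of which leave out a single library (values 2.185 to 3.05, adjusted p from 3.571e-06 with DESeq2 to 0.1185 with edgeR without WT replicate 2 of 5 months). Cry2, which encodes a repressor of the loop, differed by 0.63 (SE 0.140, edgeR adjusted p = 0.0357) and Hlf, a D-box activator, by 0.52 (SE 0.106, edgeR adjusted p = 0.0212). Outside the clock, Fkbp5, a glucocorticoid-induced chaperone partner, differed by 2.00 (SE 0.257, edgeR adjusted p = 0.00643), with 15.9 to 17.2 normalized CPM in WT and 86.2 to 112 in KO-labelled livers at 5 months. The target gene Pparg differed by 0.62 (SE 0.145, edgeR adjusted p = 0.0432), with the wider excess at 5 months. These 5 genes were higher in 3 of 3 KO-labelled livers than in any WT liver at 5 months. The other 3 were macrophage markers with a contrast below 0, Clec4f at -1.10 (SE 0.126, edgeR adjusted p = 0.000988), Csf1r at -0.92 (SE 0.156, edgeR adjusted p = 0.0112) and Timd4 at -2.27 (SE 0.408, edgeR adjusted p = 0.0167), and all 3 were lower in 3 of 3 KO-labelled livers than in any WT liver at 5 months. Over all genes 1.57% passed this contrast. Why these differences arose was not tested.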

How the results depend on the processing

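The index of the phases stayed within 1 pooled SD of its reported value under every alternative. That SD pools group SDs of 0.104 to 0.529, so it was wide beside the difference between genotypes at 5 months. Leaving out Ciart lowered that difference, as given above, and still counted as within the SD. Of the values of single members under an alternative, 786 kept their direction and their side of the threshold, and 27 lost and 7 gained a call. A further 26 changed sign, none of them for a difference that had passed. Against WT at 2 months, 1 member instead of 0 passed with an unadjusted p and 1.3-fold change (Arntl) and 1 without a filter (Per2, edgeR adjusted p = 0.0114), and 0 to 2 with each library left out. At 5 months 2 instead of 4 passed with all 12 libraries in one fit. For the contrast of the times, 0 to 1 passed with each library left out, since Ciart lost its call without any of 7 libraries. Without a filter, Nr1d1 and Per1 lost their call over time in WT (edgeR adjusted p = 0.116 and 0.109). Calls were gained at 5 months by Dbp without a filter (edgeR adjusted p = 0.00675) and Clock without WT replicate 1 (edgeR adjusted p = 0.0322), and over time in KO-labelled livers by Ciart with all 12 libraries in one fit (edgeR adjusted p = 0.0301), where Nr1d1 lost its call (edgeR adjusted p = 0.102). The cause of these shifts was not tested. Npas2 was not tested with at least 10 counts in every library wherever a library of 2 months was used.

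Changes of sign were found for small differences. At 2 months Nr1d1 was at 0.0028 with DESeq2 and 0.0058 without a filter, and with library size alone Nr1d2 was at -0.017 and Ciart at -0.072, as was Nr1d2 at -0.022 at 5 months. With each library left out, log2 changes at 2 months ran from -0.19 to 0.55 for Npas2, -0.17 to 0.36 for Nr1d1, -0.041 to 0.15 for Nr1d2, -0.16 to 0.033 for Per3 and -0.17 to 0.16 for Ciart, at 5 months from -0.074 to 0.41 for Npas2 and -0.0001036 to 0.11 for Nr1d2, and in the contrast from -0.34 to 0.41 for Npas2, -0.11 to 0.077 for Nr1d2 and -0.25 to 0.33 for Per1.

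With the replicate number as a block, Nr1d1 at 2 months was at 0.056, Per2 at 5 months (edgeR adjusted p = 0.0748), Per1 over time in WT (edgeR adjusted p = 0.0661) and Ciart in the contrast (edgeR adjusted p = 0.0652) lost their calls, leaving 3, 9 and 0 members, and no other member call changed with the block. No pairing of equal numbers is stated for any comparison. Outside the comparison at 2 months, same-number correlations were -0.0751, -0.0618 and -0.185 at 5 months, 0.237, 0.184 and 0.0186 over time in WT and -0.0356, 0.219 and -0.0181 over time in KO-labelled livers, and not every library correlated best with its own number.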

Other observations

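Genes induced by glucocorticoids, hormones with a daily rhythm of their own, differed between the genotypes at 5 months. Of 8 tested, 5 were higher in KO-labelled livers and 1 lower, against 18.4% of all genes in either direction. Zbtb16 was at 57.8 to 68.6 normalized CPM in KO-labelled livers and 4.78 to 7.11 in WT, a log2 change of 3.45 (edgeR adjusted p = 6.76e-08), and Fkbp5 changed by 2.54 (edgeR adjusted p = 9.2e-08). Klf9, Tsc22d3 and Tat were 0.91, 0.80 and 0.43 higher and Sgk1 fell by 0.42 (edgeR adjusted p up to 0.00904). At 2 months edgeR called 0 of 7, with 3 at an unadjusted p under 0.05 and 2 called by DESeq2, where edgeR called 3.56% of all genes. Over time, Fkbp5 changed by -0.44 in WT and 1.56 in KO-labelled livers, Tat rose by 0.58 in WT, and in KO-labelled livers Zbtb16 and Mt1 rose by 2.75 and 1.73 and Sgk1 fell by 0.40. Among all genes, 46.4% passed over time in WT and 44.9% in KO-labelled livers. Per1 and Klf9 are known to answer to both the clock and glucocorticoids. Mt2 had 0 or 1 count in each of the 6 libraries of 2 months and 30 to 99 counts in each of the 6 libraries of 5 months. Whether the tables of both times were counted in the same way is not given in the sources used here and was not tested, which bears on every comparison between the times.

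Of 9 genes of the heat and cold response, edgeR called 0 at 2 months (0 at an unadjusted p under 0.05 and 0 by DESeq2), where it called 3.56% of all genes. At 5 months Hspa1a and Hspb1 were lower in KO-labelled livers, with log2 changes of -1.39 (edgeR adjusted p = 0.00491) and -0.93 (edgeR adjusted p = 1.91e-06). These were 2 of the 9, where 18.4% of all genes passed in either direction. Hspb1 and Hsp90aa1 rose over time by 1.40 and 0.90 in WT and by 0.75 and 0.45 in KO-labelled livers, where Hspa1a and Rbm3 changed by -2.12 and -0.62. Of all genes, 46.4% passed over time in WT and 44.9% in KO-labelled livers. The part of these genes in the clock results was not tested.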
